A study of Drosophila melanogaster with 399 samples.

Results

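The chemosensory receptor genes of Drosophila melanogaster were taken as the genes whose symbol begins with Or, Gr or Ir followed by a digit, together with Orco. The rule found 187 of the 17612 genes in the count files, namely 61 odorant receptor genes, 60 gustatory receptor genes and 66 ionotropic receptor genes. The libraries were poly(A) RNA-seq libraries of whole embryos, 271 of them from RNAi crosses against 45 transcription factors (TFs) and the others from 21 control sets. In an RNAi cross a single short hairpin of the TRiP Valium20 collection was expressed, per the study's methods under the ubiquitous driver da-Gal4 and in crosses kept warm to raise Gal4 activity, and the usual control expressed a hairpin against mCherry, a gene flies do not have. The exceptions were a da-Gal4 control for E5 and an MTD-Gal4 control for twi, where MTD-Gal4 is a driver active in the maternal germ line, and the labels do not give the driver of the twi RNAi cross itself. Embryos were collected at 0 to 1.5 h, at 16 to 18 h and in a middle window in which the targeted TF was at its highest, usually with 2 replicates. The limits of the model are that 1 hairpin was used for each TF, that da-Gal4 acts in all cells, and that whole embryos were sequenced, so that fewer cells of a type and less RNA per cell cannot be told apart.

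Odorant receptors are ion channel subunits that need the shared co-receptor Orco to reach the sensory cilium and to respond to odours. Ionotropic receptors are related to glutamate receptors and work with the co-receptors Ir8a, Ir25a and Ir76b, in neurons for smell, taste, humidity and temperature. Gustatory receptors detect sugars, bitter compounds and carbon dioxide. In the embryo many of these genes are known from a few sensory neurons of the developing larval head, and their messages are a small part of whole-embryo RNA. From its expression, the study lists Ir25a among genes that may act in the peripheral nervous system, chordotonal organs included.

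Library totals ran from 13148430 to 167412388 gene counts, with a median of 54799768. Levels are given as CPM, the count of a gene scaled to the total gene count of its library. All receptor genes together made up 10.3 to 52.5 CPM in control embryos at 0 to 1.5 h and 24.5 to 74.2 CPM at 16 to 18 h, so that single genes usually lay near or under 1 CPM. Among the late libraries, those of dmrt99B and caup RNAi stood apart, with TMM normalization factors of 0.209 and 1.78 in dmrt99B RNAi, against 1.62 to 1.66 in its controls, and of 0.457 to 0.711 in caup RNAi, against 1.73 to 1.77 in its controls. None of the 198 replicate pairs had identical counts.

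A receptor gene was called detected when it had at least 10 counts in at least 10 libraries. This held for 97 of the 187 genes, of which 37 were odorant, 29 gustatory and 31 ionotropic receptor genes. A further 85 genes had counts that did not reach the rule, and Gr10a, Gr64b, Gr64c, Ir75d and Or10a had no count in any library. Just inside the rule, Or88a, Ir68b, Ir60d, Ir8a, Or85a, Or74a and Or85d reached 10 counts in 10 libraries each. Just outside it, Gr23a, Ir48c, Ir94h and Or94a reached 10 counts in 9 libraries.

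The median exon length was 1488 bases in detected genes and 1362.5 bases in the others. Exons of 23 receptor genes overlapped an exon of a gene on the other strand, 13 of them detected. Per the study's methods, reads that overlapped more than 1 annotated gene were not counted. Whether the counting used strand is not given in the sources used here, so reads in these overlaps were either assigned by strand or dropped. Exons of 13 genes, among them Gr64d, Gr64e, Ir75d and Or46a of the 23 above, overlapped a gene on the same strand, and of these only Gr2a, which shares exons with futsch, was detected. Gr10a with Or10a and Gr64b with Gr64c cover the same exon bases, and Ir75d overlaps COX6AL2, so a count of 0 does not show that these 5 genes were silent. Inside a gene on the same strand lay 11 receptor genes, 3 of them detected, namely Or71a in Plp, Ir62a in Iml1 and Or1a in CG3777. Whether RNA of the outer gene added to their counts was not tested. Or19b has a near-identical copy, Or19a, and reads of the copies may have been divided between them or dropped. Over all libraries Or19b had 100593 counts and Or19a 777 counts, and the source of this difference was not tested.

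Because the windows hold different numbers of libraries, detection within a window was also counted as at least 10 counts in 50% or more of its libraries. This gave 5 genes at 0 to 1.5 h, 26 at 2 to 4 h, 22 at 6 to 8 h, 19 at 8 to 10 h, 19 at 10 to 12 h, 25 at 12 to 14 h, 37 at 14 to 16 h and 27 at 16 to 18 h. The sum over all receptor genes in control embryos had medians of 13.4 CPM at 0 to 1.5 h, 77.4 CPM at 2 to 4 h (21.2 to 112 CPM over 4 libraries, against a median of 48.3 CPM over all 14 libraries of that window), 40.1 CPM at 6 to 8 h and 65.2 CPM at 12 to 14 h. Of the 97 detected genes, none had its highest mean level at 0 to 1.5 h, 20 had it at 2 to 4 h, 33 at 14 to 16 h and 15 at 16 to 18 h. An early and a late group were thus seen, with fewer peaks between them.

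Which receptor genes came on during embryogenesis was asked in the control embryos, with windows compared within control sets in 1 edgeR quasi-likelihood fit. A gene was called changed at a Benjamini-Hochberg adjusted p of at most 0.1 and a log2 fold change of 0.5 or more in either direction. Of the 187 receptor genes, 90 passed the filter on low counts. A gene could pass through any window, so genes absent at 0 to 1.5 h entered through later expression and could not be lower later. At 16 to 18 h against 0 to 1.5 h, 80 of the 90 were higher and 2 were lower, with a median log2 fold change of 4.43. Over all 13072 genes tested 52.2% were higher and 32.8% were lower in the same contrast. The 2 that fell were Or43b (log2 fold change -1.72 ± 0.086, SE) and Gr61a, a gene of the sugar receptor clade (-1.75 ± 0.25).

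The rise was already under way at 6 to 8 h, where 68 receptor genes were higher and 2 lower than at 0 to 1.5 h (background 52% higher, 20.8% lower). From 6 to 8 h to 10 to 12 h, 29 were higher and 11 lower at the later time (background 33.7% and 23.9%), with 21 and 9 without replicate 1, and 16 and 6 without replicate 2. At 12 to 14 h against 10 to 12 h, 37 were higher and 6 lower (background 19.9% and 16.3%), with 16 and 1 without replicate 1, and 22 and 3 without replicate 2. At 16 to 18 h against 12 to 14 h, 16 were higher and 17 lower, with a median log2 fold change of 0.05 (background 21.2% and 19.1%). The calls in the last contrast were 15 higher and 9 lower without replicate 1, and 3 higher and 5 lower without replicate 2.

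Among listed groups, 20 of the 20 tested larval odorant receptor genes (26 listed) were higher at 16 to 18 h than at 0 to 1.5 h, with a median log2 fold change of 5.15. The same filter applied, and listed genes such as Or24a, Or45a, Or47a and Or49a averaged 0 CPM at 0 to 1.5 h. Such genes could not be lower in this contrast. Of the antennal ionotropic receptor genes, 11 of 14 tested were higher (17 listed), and all 5 tested genes of bitter neurons were higher. Of the sugar receptor clade, 2 were higher and 1 lower of 5 tested (9 listed), with a median of 0.59.

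The co-receptors came on in sequence. Ir25a (chr2L:4830846-4835300, minus strand, BDGP6), the most widely used ionotropic co-receptor, averaged 0.166 ± 0.14 CPM at 0 to 1.5 h (SD, n = 42), 2.91 ± 0.73 at 6 to 8 h (n = 8), 9.45 ± 0.022 at 8 to 10 h (n = 2), 9.13 ± 1.5 at 10 to 12 h (n = 14), 8.59 ± 2.5 at 12 to 14 h (n = 10) and 5.88 ± 1.6 at 16 to 18 h (n = 42). It was higher at 6 to 8 h than at 0 to 1.5 h by a log2 fold change of 4.46 ± 0.32, and higher again at 10 to 12 h than at 6 to 8 h by 1.69 ± 0.41. The plateau from 8 to 16 h lay within the spread of the libraries.

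Orco (chr3R:5407183-5412406, minus strand) was later. It averaged 0.148 ± 0.11 CPM at 6 to 8 h, 0.227 ± 0.12 at 8 to 10 h, 0.992 ± 0.35 at 10 to 12 h, 3.24 ± 1.3 at 12 to 14 h, 4.12 ± 0.85 at 14 to 16 h (n = 6) and 3.33 ± 0.87 at 16 to 18 h. The log2 fold change was 3.25 ± 0.55 at 10 to 12 h against 6 to 8 h and 1.38 ± 0.47 at 12 to 14 h against 10 to 12 h, and both were called. Orco thus reached its plateau at 12 to 14 h, with libraries from 0.927 to 4.92 CPM in that window.

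Ir76b (chr3L:20108484-20111534, minus strand), a co-receptor in smell and taste neurons, followed Orco closely. It averaged 0.200 ± 0.15 CPM at 6 to 8 h, 1.63 ± 0.44 at 10 to 12 h, 5.22 ± 1.6 at 12 to 14 h, 7.67 ± 0.98 at 14 to 16 h and 5.71 ± 1.5 at 16 to 18 h. Over the 8 window means, the log2 levels of Orco correlated with those of Gr28b at r = 0.994, of Ir76b at 0.994, of Or67c at 0.990 and of Gr21a at 0.989. These are descriptions of 8 points that share libraries. The gene closest to Ir25a was Ir93a, at r = 0.978.

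Ir8a, the co-receptor of acid-sensing neurons, was not on this course. Its highest mean was 0.262 ± 0.19 CPM at 2 to 4 h (n = 4), and it averaged 0.0107 ± 0.018 CPM at 16 to 18 h, where its highest control library had 0.0672 CPM. It was thus near the limit of detection in late embryos.

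**Figure D1:**
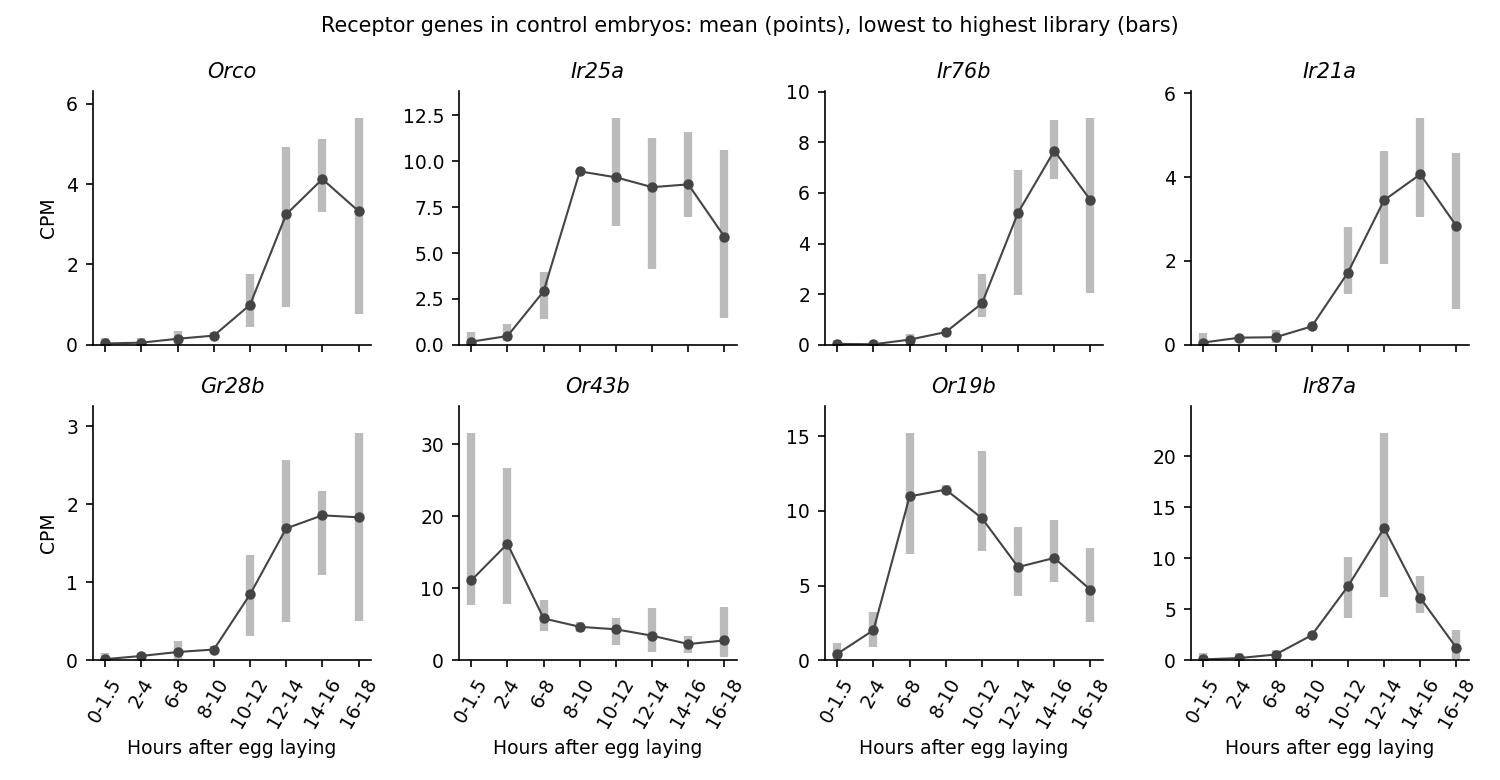
Level in CPM of 8 receptor genes in control embryos against collection window in hours, with points for the mean of the libraries and grey bars from the lowest to the highest library. Ir25a reached 9.45 CPM at 8 to 10 h while Orco, Ir76b, Ir21a and Gr28b had their highest means at 14 to 16 h, and Or43b was highest before 6 h.

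Other late genes followed Orco and Ir76b. Ir21a, needed for cool sensing, averaged 0.179 ± 0.13 CPM at 6 to 8 h, 1.72 ± 0.49 at 10 to 12 h, 4.07 ± 0.86 at 14 to 16 h and 2.83 ± 0.75 at 16 to 18 h. Gr28b, whose isoforms act in light and warmth sensing, averaged 0.842 ± 0.33 CPM at 10 to 12 h, 1.86 ± 0.43 at 14 to 16 h and 1.83 ± 0.50 at 16 to 18 h. Gr33a and Gr66a, both needed in bitter neurons, averaged 0.619 ± 0.23 and 0.632 ± 0.29 CPM at 16 to 18 h.

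The carbon dioxide receptor subunits, which work together in the same neurons, shared only part of their course. Both were called higher at 12 to 14 h than at 10 to 12 h (background 19.9%). At 10 to 12 h against 6 to 8 h, 1 was higher and 1 lower. Gr21a averaged 0.935 ± 0.36 CPM at 14 to 16 h and 0.731 ± 0.31 at 16 to 18 h, and had 0 counts in the 4 control libraries at 2 to 4 h. Gr63a had its highest mean at 2 to 4 h, 1.07 ± 0.53 CPM, and averaged 0.181 ± 0.088 CPM at 14 to 16 h. In the 2 to 4 h libraries 1 subunit was thus measured without the other.

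Ir87a, an ionotropic receptor gene, had its highest level in a middle window. It averaged 0.555 ± 0.34 CPM at 6 to 8 h, 7.24 ± 1.8 at 10 to 12 h, 12.9 ± 5.5 at 12 to 14 h, 6.09 ± 1.4 at 14 to 16 h and 1.20 ± 0.66 at 16 to 18 h. It was higher at 10 to 12 h than at 6 to 8 h by a log2 fold change of 4.08 ± 0.65, and lower at 16 to 18 h than at 12 to 14 h by -2.91 ± 0.44. The libraries at 12 to 14 h ran from 6.21 to 22.2 CPM and those at 16 to 18 h from 0.0956 to 2.95 CPM, without overlap. Ir62a, which lies inside Iml1 on the same strand, was flatter. Its means were 1.90 ± 0.66 CPM at 6 to 8 h, 2.79 ± 1.6 at 12 to 14 h and 1.74 ± 0.72 at 16 to 18 h. Gr68a, known from male foreleg taste neurons, came last, with 0.136 ± 0.10 CPM at 12 to 14 h, 0.581 ± 0.17 at 14 to 16 h and 0.751 ± 0.33 at 16 to 18 h.

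Per kilobase of exon, the order at 16 to 18 h was Or19b (4.05 CPM per kb), Ir76b (2.48), Or43b (1.94), Orco (1.71), Ir25a (1.64) and Ir21a (1.08). Neighbours from Ir76b to Ir25a did not differ beyond the spread of their libraries. Or19b averaged 11 ± 2.7 CPM at 6 to 8 h, 9.51 ± 1.7 at 10 to 12 h and 4.71 ± 1.3 at 16 to 18 h, so that it stood high long before Orco. Its near-identical copy Or19a averaged 0.0397 CPM at 16 to 18 h. The olfactory co-receptor was at 0.148 CPM in the 6 to 8 h libraries.

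The early group depended in part on the cross. At 2 to 4 h there were only 4 control libraries, 2 of the MTD-Gal4 set for twi and 2 of an mCherry set for CG15696, su(Hw), gfzf and cad. Against 0 to 1.5 h, 48 of the 90 tested genes were higher at 2 to 4 h (background 37.4% higher, 16.9% lower). With mCherry sets alone 34 were higher and 1 lower of 84 tested (background 27.6% and 19.4%). At 6 to 8 h against 2 to 4 h, 23 were higher and 18 lower (background 29.1% and 18.7%). Without replicate 1 of every control set, 12 were higher and 13 lower, and without replicate 2, 10 were higher and 3 lower. With mCherry sets alone, both replicates kept, 12 were higher and 8 lower of 84 tested (background 17.9% and 18.7%).

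Ir68a, needed for sensing moist air, was among the most abundant of the early genes, with Or43b. It had 21.4 and 24.0 CPM in the MTD-Gal4 libraries and 4.50 and 16.0 CPM in the mCherry libraries at 2 to 4 h, while the 8 libraries of the other RNAi crosses ran from 6.96 to 16.1 CPM. At 0 to 1.5 h the control mean was 0.575 ± 0.36 CPM (n = 42), and the rise had a log2 fold change of 4.88 ± 0.41. Ir68a thus rose in both kinds of cross. Ir40a, needed for sensing dry air, averaged 1.74 ± 0.69 CPM at 2 to 4 h and 0.280 ± 0.17 at 0 to 1.5 h, a log2 fold change of 2.62 ± 0.63. Or22a, an ester receptor of adult flies, had 2.58 and 2.72 CPM in the MTD-Gal4 libraries and 0.511 and 2.03 in the mCherry libraries.

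Ir64a, an acid receptor that pairs with Ir8a, was nearly confined to the crosses for twi. It had 10.7 and 12.5 CPM (465 and 894 counts) in MTD-Gal4 control libraries at 2 to 4 h, against 0 and 1 count in the mCherry libraries. The 8 libraries of the other RNAi crosses in that window all had 0 counts, which allows up to 3 counts per library. In late embryos the MTD-Gal4 control had 309 and 170 counts, while the 38 mCherry control libraries had at most 1 count each.

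Ir76a, an antennal amine receptor, showed the same crosses apart from the rest. At 0 to 1.5 h the MTD-Gal4 libraries had 16.4 and 14.2 CPM, while the median over all 42 control libraries was 0.0897 CPM and the highest of the 126 libraries outside the twi crosses had 2.15 CPM. At 2 to 4 h MTD-Gal4 embryos had 10.1 and 9.68 CPM and mCherry embryos 0.483 and 1.19 CPM. Or43b, an adult antennal odorant receptor gene, had 31.5 and 29.1 CPM in MTD-Gal4 embryos at 0 to 1.5 h, against at most 14.1 CPM in the 126 other libraries. Whether parental strain or driver underlies these levels was not tested.

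**Figure D2:**
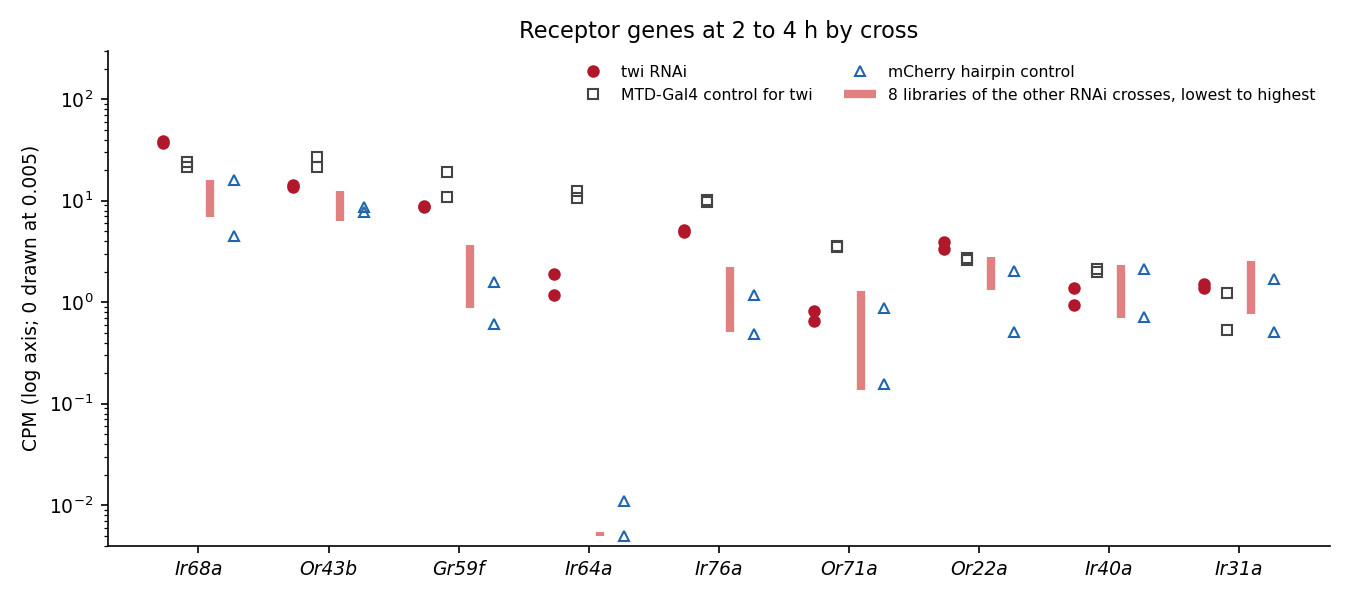
Level in CPM on a log axis of 9 receptor genes at 2 to 4 h, with red points for twi RNAi libraries, black squares for its MTD-Gal4 control, pink bars for the range of 8 libraries of other RNAi crosses and blue triangles for the mCherry control. Ir64a, Ir76a, Gr59f, Or71a, Ir68a, Or43b and Or22a were higher in MTD-Gal4 libraries than in every mCherry library, while the ranges of Ir40a and Ir31a overlapped. For Or22a the other RNAi crosses reached 2.82 CPM, above both MTD-Gal4 libraries.

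RNAi was compared with the matching control for each TF and window, usually 2 libraries against 2. Between 3 and 66 receptor genes passed the filter in a comparison, and 102 passed it at least once. These gave 3053 tests of receptor genes, with 98 calls, spread over 29 of the comparisons. Lower calls were 63, or 2.06% of tests, against 1.82% lower over all genes. Higher calls were 35, or 1.15%, against 2.45% higher over all genes. The median log2 fold change of all tests was 0.02.

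By family, odorant receptor genes had 21 lower and 12 higher calls, gustatory receptor genes 10 lower and 15 higher, and ionotropic receptor genes 32 lower and 8 higher. These are counts and not shares of the tests in a family, and single genes made up much of them. Or43b gave 10 of the higher odorant calls and Or56a 7 of the lower ones. Ir76a gave 10 of the lower ionotropic calls, and Gr64a and Gr64f gave 5 each of the higher gustatory calls. With library totals in place of TMM factors there were 106 lower and 32 higher calls, so that the share of lower calls was 76.8% instead of 64.3%. The scaling moved the median of all genes by more than 0.1 on the log2 scale in 15 of the 29 comparisons, by up to -2.08 in caup RNAi at 10 to 12 h. In all, 43 genes were called, 17 of them in 2 comparisons or more. Of the 98 calls, 8 were kept without each library in turn, 62 were also made by DESeq2 and 87 with library totals. The calls lost with library totals were those of Or43b in CG33557 and Hr51 RNAi, Gr64f in Camta, Or56a in HLH54F, Or49a in late Pdp1, Gr5a and Ir40a in caup, Or19b in kay, Ir76a in sens-2 RNAi at 14 to 16 h, and Ir87a and Gr59f in twi RNAi.

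In the joint fit of all libraries of a window, 60 of the 98 calls were also made. Among those it lost were all 9 calls in twi RNAi at 2 to 4 h, the 5 in Sox15 RNAi at 10 to 12 h and the 4 in Bdp1 RNAi, with an edgeR adjusted p of 0.163 for Or43b in Bdp1 RNAi. The Or56a calls in CG34376 (0.327), ERR (0.136) and HLH54F RNAi (0.321) were lost as well.

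Controls of the same window came from several sets for 93 of the calls. In 41 of these the RNAi libraries lay beyond every control library of the window in the direction of the call, and in 52 they lay within the range of the controls of other sets. The share over all called genes was not computed, so whether 41 is many cannot be told. There were 2 control sets at 2 to 4 h and 21 at 16 to 18 h, so the bar differed by window. Ir25a and Ir76b in sens RNAi at 16 to 18 h, Ir93a in sens RNAi at 6 to 8 h, Ir76a in Pdp1 and sens-2 RNAi in both windows, and Gr68a in kay and Sox15 RNAi at 16 to 18 h were beyond all controls.

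The hairpins below are shown because the co-receptor and Ir76a results turn on the crosses that carried them. Each is the 21-base sense sequence of the hairpin, 5′ to 3′, as listed for the TRiP line, with no part singled out, and the targeted genes lie at chr3L:13396228-13401125 (sens, minus strand), chr2L:6821934-6838995 (sens-2, plus strand), chr3L:7811458-7867369 (Pdp1, minus strand) and chr3L:24724162-24758036 (scro, plus strand) in BDGP6.
sens: caggacgagacacacactcaa
sens-2: ctggtcaagactgaacaacta
Pdp1: atggatctcaagacagagtta
scro: tagcacaaagaagaaagcgaa

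In sens RNAi, both late ionotropic co-receptors fell. The gene sens encodes a zinc finger protein of sensory organ precursors, and it had 0.0318 and 0.0189 CPM in sens RNAi embryos at 16 to 18 h, against 1.17 and 0.786 CPM in mCherry controls. Of 29 receptor genes tested, 2 were called, both lower, while 1.17% of all genes were called. The median log2 fold change was -0.55 over the 29 receptor genes and -0.01 over all genes.

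Ir25a had 0.970 and 1.00 CPM in sens RNAi libraries, against 5.39 and 5.77 CPM in control libraries, a log2 fold change of -2.58 ± 0.25 (edgeR adjusted p = 0.022). Ir76b had 1.07 and 0.774 CPM in sens RNAi libraries, against 4.68 and 6.67 CPM in control libraries, a log2 fold change of -2.71 ± 0.31 (edgeR adjusted p = 0.0364). For both genes all RNAi libraries lay below all control libraries, a separation seen in all 63 lower calls of receptor genes. Without sens RNAi replicate 1 or 2 the edgeR adjusted p was 0.138 or 0.115 for Ir25a and 0.105 or 0.147 for Ir76b.

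Among the 132 libraries at 16 to 18 h, the lowest Ir25a and Ir76b levels were those of dmrt99B RNAi replicate 1, both caup RNAi libraries and both sens RNAi libraries. The summed level of 10 pan-neuronal genes was 125 and 1867 CPM in the dmrt99B RNAi libraries. It was 1728 to 1963 CPM in sens RNAi embryos, against 1582 to 1777 CPM in the sens controls, with a median log2 fold change of 0.09.

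The remaining receptor genes in sens RNAi at 16 to 18 h did not pass the test. Ir21a had 1.05 and 0.699 CPM in RNAi libraries, against 2.38 and 2.99 CPM in matching controls (-1.71 ± 0.33, edgeR adjusted p = 0.147). Orco had 1.37 and 1.66 CPM in RNAi libraries, against 3.09 and 3.05 CPM in matching controls (-1.10 ± 0.28, edgeR adjusted p = 0.236). Gr33a had 0.143 and 0.0189 CPM, against 0.480 and 0.674 CPM in matching controls (-2.84 ± 0.78, edgeR adjusted p = 0.251). Of the 29 tested genes, 16 were lower in both RNAi libraries than in both controls, as were 17.2% of all genes tested, 12 overlapped and Or2a was higher in both, as were 30.4% of all genes tested, with 0.509 and 0.321 CPM in RNAi libraries, against 0.0768 and 0.135 CPM in matching controls (1.88, edgeR adjusted p = 0.275). In the joint fit of all libraries of the window, which shares the estimate of spread, the edgeR adjusted p was 5.48e-04 for Ir21a, 0.00167 for Gr33a, 0.0108 for Ir93a and 0.133 for Orco.

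Genes of sensory cilia moved in the same comparison. Of 20 listed cilium genes tested, 5 were called, all lower, with a median log2 fold change of -1.70. They were btv, a dynein heavy chain of cilium transport (-3.85 ± 0.48), Dhc93AB, an axonemal dynein (-2.81 ± 0.31), the channel subunits iav (-2.57 ± 0.40) and nompC (-1.24 ± 0.16), and nompA, which links cilia to the cuticle (-1.70 ± 0.24). Of 7 tested chemosensory accessory genes (17 listed), 1 was called, Obp49a, an odorant binding protein of taste bristles, which fell (-1.98 ± 0.25), and the median log2 fold change of the list was 0.03. The summed level of the cilium genes was 68.0 to 87.5 CPM in sens RNAi embryos, against 115 to 143 CPM in matching controls. The part of these genes in the receptor result was not tested.

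At 6 to 8 h, sens had 7.01 and 7.93 CPM in RNAi embryos, against 26.3 and 36.1 CPM in matching controls. Ir93a, which acts with Ir25a in humidity and temperature sensing, was the only receptor gene called of 29 tested (background 0.235%). It had 0.0691 and 0.0574 CPM in sens RNAi libraries, against 0.896 and 0.962 CPM in matching controls, a log2 fold change of -3.85 ± 0.49 (edgeR adjusted p = 0.0969). In that window Ir25a had 1.93 and 1.57 CPM in RNAi libraries, against 2.69 and 3.98 CPM in matching controls (-0.95 ± 0.30, edgeR adjusted p = 0.572). The effects at 16 to 18 h and at 6 to 8 h did not pass a test of their difference for any receptor gene, with a lowest edgeR adjusted p of 0.613.

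**Figure D3:**
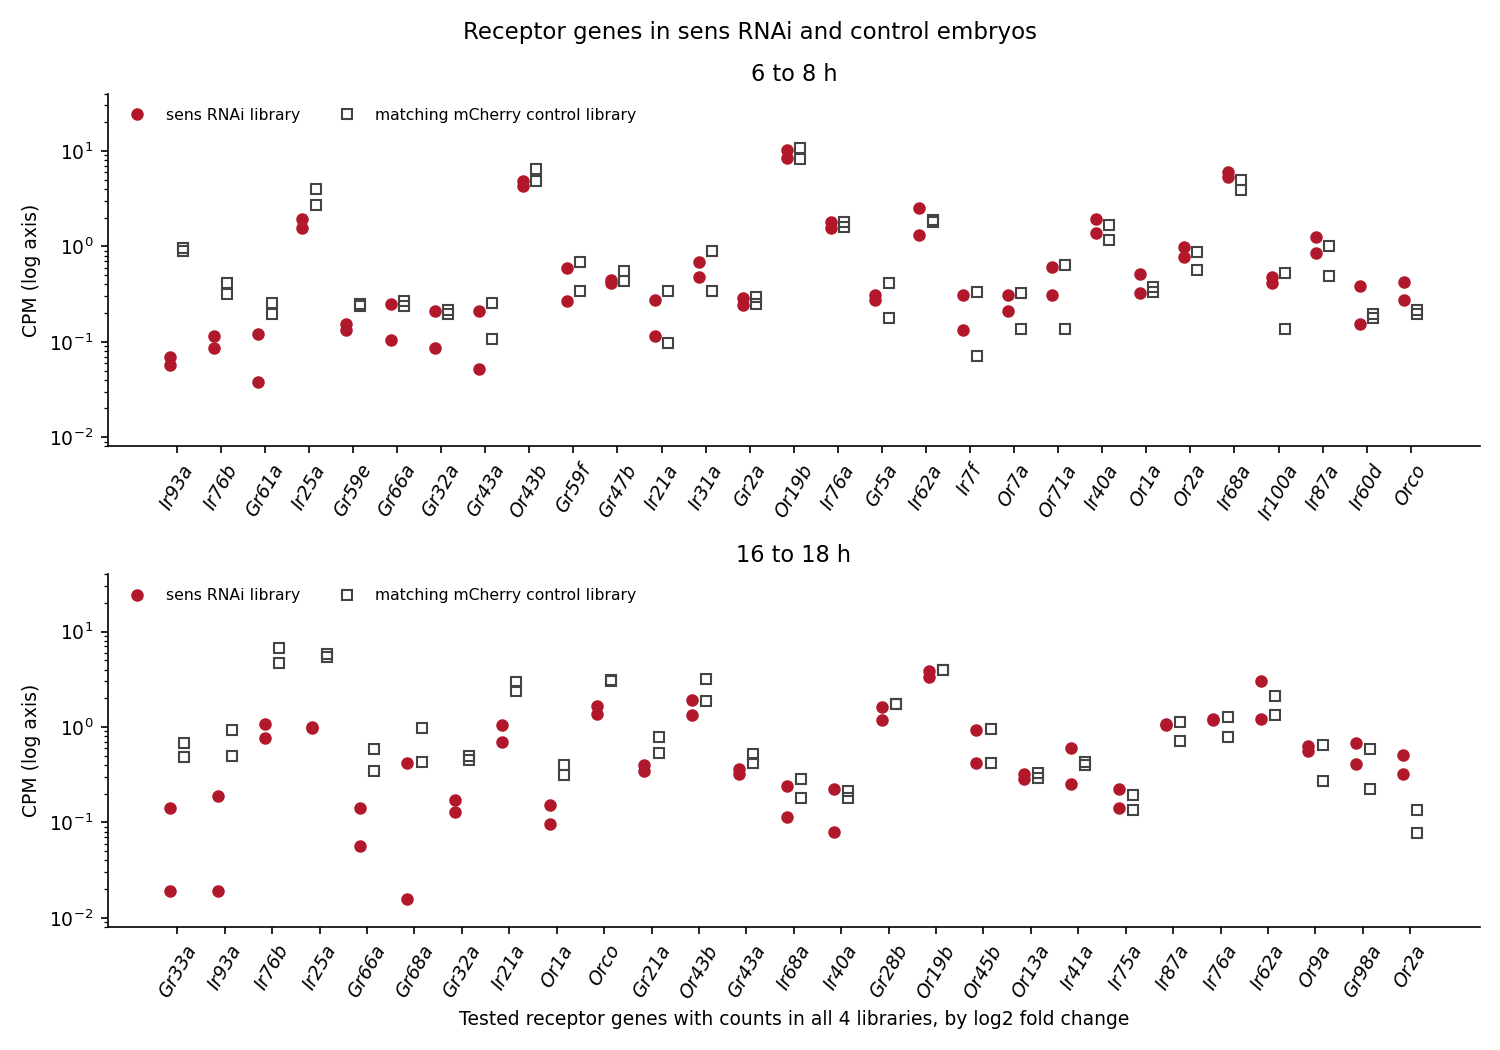
Level in CPM on a log axis of the tested receptor genes with counts in all 4 libraries, 29 genes at 6 to 8 h (upper panel) and 27 genes at 16 to 18 h (lower panel), ordered by log2 fold change, with red points for sens RNAi libraries and open squares for mCherry control libraries. Among tested genes, drawn or not, both RNAi libraries were below both controls for 5 of 29 at 6 to 8 h and 16 of 29 at 16 to 18 h, and above them for 2 and 1. Gr39a and Or7a, among the 16, are not drawn because an RNAi library had no count. Over all genes tested the RNAi libraries were below in 21.6% at 6 to 8 h and 17.2% at 16 to 18 h, and above in 24.9% and 30.4%.

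Co-receptors were called in 4 other comparisons. In CG33557 RNAi at 6 to 8 h, Ir25a had 0.907 and 1.10 CPM, against 3.36 and 3.14 CPM in matching controls (-1.14 ± 0.34, edgeR adjusted p = 0.0532). Receptor genes there were 1 lower and 2 higher of 24 tested (background 37.3%), the higher ones being Or43b (0.97) and the sugar receptor gene Gr64a. CG33557 itself had 0 and 0.019 CPM in RNAi embryos, against 0.637 and 1.04 CPM in matching controls. The maternal egg list had 3 of 6 genes higher in these RNAi embryos, where 26.3% of all genes were higher.

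In scro RNAi at 12 to 14 h, 3 of 31 tested receptor genes were lower and 1 higher (background 35.2%). Ir76b had 2.89 and 2.77 CPM in scro RNAi libraries, against 5.52 and 6.33 CPM in matching controls (-0.68 ± 0.23, edgeR adjusted p = 0.0869, or -1.06 with library totals). Gr28b had 0.494 and 0.594 CPM in scro RNAi libraries, against 1.85 and 1.88 CPM in matching controls (-1.39 ± 0.40, edgeR adjusted p = 0.056). Lower Gr28b was common in other crosses as well. In 74 comparisons it averaged at least 10 counts, and both RNAi libraries were below both controls in 55.4% of them and above in 6.76%. Over all genes these shares were 23.6% and 21.6%. Ir48b had 0 counts in both RNAi libraries, against 16 and 8 counts in controls, at least 3.92-fold lower with a floor of 3 counts per library. Low counts of Ir48b were common outside this cross, since 55 of 75 RNAi libraries from 6 to 14 h had 0 or 1 count, against 10 of 32 mCherry control libraries. Or43b was higher (1.05 ± 0.29). The homeobox gene scro had 13.9 and 8.24 CPM in RNAi embryos, against 17.0 and 14.9 CPM in matching controls, and was not called. Of listed genes, 7 of 10 pan-neuronal genes were lower and 2 higher, and 3 of 6 maternal egg genes were higher. Muscle (Mlc2, Act57B, Tm2), hemocyte (NimC1, Hml, crq), glial (Gs2, nrv2) and cilium genes (nompC, Dhc93AB) were also called lower. The other tested muscle, hemocyte, glial and cilium genes were not called. Over all genes 12.7% were lower and 22.5% higher. Ir48b, Gr28b and Ir76b each lost the call when any single library was left out.

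In caup RNAi at 10 to 12 h, where 84.9% of all genes were called, 12 of 22 tested receptor genes were lower and 3 higher. Their median log2 fold change was -2.23, beside -1.17 over all genes. The gene caup, of the Iroquois homeobox group, had 0.771 and 0.216 CPM in RNAi embryos, against 40.2 and 36.8 CPM in matching controls. Orco had 0.0406 and 0.00899 CPM in RNAi libraries, against 0.931 and 1.38 CPM in matching controls (-3.41 ± 0.84), and Ir25a had 0.689 and 0.108 CPM, against 9.95 and 9.11 CPM (-2.52 ± 0.90).

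The other genes of largest change in caup RNAi at 10 to 12 h were low in both RNAi libraries as well. Or56a and the bitter receptor gene Gr32a had no count there, at least 14.1-fold and 7.05-fold lower than in controls, and Ir76b (-3.56 ± 1.2), Or2a and Gr28b (-3.49 ± 1.1) followed. Ir100a, Or19b (-2.91), Ir76a (-2.47), Ir87a (-2.38) and Ir21a (-1.21) made up the rest. With library totals these lower values were larger, from -8.01 for Or56a to -3.30 for Ir21a. Or43b had 10.3 and 13.2 CPM in RNAi libraries, against 4.78 and 5.84 CPM in matching controls (3.24 ± 0.32, or 1.14 with library totals), and Ir40a was higher (3.27 ± 0.84, but 1.21 with library totals, edgeR adjusted p = 0.223). The call for Gr5a (1.61) overlapped between groups and turned to -0.47 with library totals. Other listed genes moved as well. The summed level of the maternal egg list was 812 to 865 CPM in caup RNAi embryos, against 396 to 453 CPM in matching controls, and 5 of its 6 tested genes were higher. Lower calls were made for 19 of 20 cilium genes, 7 of 7 muscle genes and 8 of 10 pan-neuronal genes, of which the other 2 were higher.

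The late caup RNAi libraries (16 to 18 h) gave 4 lower and 1 higher of 33 receptor genes (background 48.7%). The sour receptor subunit Ir75a had no count in RNAi libraries, against 35 and 24 counts in controls, at least 8.59-fold lower. Gr98a, Gr22e and Or2a had 1 or 2 counts over both RNAi libraries, against 75, 51 and 106 counts over the controls. Or43b was again higher (2.92 ± 0.46).

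Ir76a (chr3L:19799278-19803427, plus strand) was the receptor gene with the most lower calls, in 10 of the 104 comparisons in which it was tested. In all 10 both RNAi libraries lay below both control libraries. This held for all 63 lower calls of receptor genes, so the separation came with the call. In 98 comparisons Ir76a averaged at least 10 counts. Both RNAi libraries were below both controls in 33.7% of them and above in 17.3%, beside 23.6% and 21.6% over all genes. Ir76a was called lower at both the middle window and 16 to 18 h for 3 TFs, Pdp1, sens-2 and CG10209.

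In Pdp1 RNAi, a bZIP factor, Ir76a had 0.339 and 0.555 CPM at 14 to 16 h, against 1.77 and 2.02 CPM in matching controls (-2.03 ± 0.41, edgeR adjusted p = 0.00926). Late Pdp1 RNAi libraries had 0.194 and 0.128 CPM at 16 to 18 h, against 0.915 and 1.07 CPM in matching controls (-2.63 ± 0.55, edgeR adjusted p = 0.00932). Both calls were kept when each library was left out in turn. Pdp1 had 135 and 138 CPM in RNAi embryos at 14 to 16 h, against 234 and 172 CPM in matching controls.

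In sens-2 RNAi, a zinc finger gene related to sens, Ir76a had 0.302 and 0.358 CPM at 14 to 16 h, against 1.72 and 1.33 CPM in matching controls (-2.25 ± 0.37, edgeR adjusted p = 0.09). Late sens-2 RNAi libraries had 0.216 and 0.165 CPM at 16 to 18 h, against 1.37 and 0.952 CPM in matching controls (-2.75 ± 0.48, edgeR adjusted p = 0.0289). It was the only receptor gene called in either comparison, of 41 and 43 tested (background 0.971% and 12.5%). The targeted gene had 22.9 and 27.6 CPM in sens-2 RNAi embryos at 16 to 18 h, against 21.9 and 21.5 CPM in matching controls, so that the count over the whole gene was not lower.

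In CG10209 RNAi, Ir76a had 1.14 and 0.657 CPM at 12 to 14 h, against 1.80 and 1.89 CPM in matching controls (-0.88 ± 0.35, edgeR adjusted p = 0.0845). Late CG10209 RNAi libraries had 0.162 and 0.146 CPM at 16 to 18 h, against 0.995 and 0.929 CPM in matching controls (-2.54 ± 0.46, edgeR adjusted p = 0.00783). CG10209 was itself lower at 16 to 18 h, with 4.69 and 6.02 CPM in RNAi embryos, against 13.8 and 11.8 CPM in matching controls (-1.17 ± 0.17).

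The other lower calls of Ir76a were in RNAi against Hr51, a nuclear receptor, at 6 to 8 h (-1.22 ± 0.29), Kah, a Snail-type zinc finger gene, at 8 to 10 h (-0.59 ± 0.24), caup at 10 to 12 h, and twi at 2 to 4 h (-1.08 ± 0.21). CG14102, whose exon overlaps Ir76a on the other strand, was lower with it in 1 of the 10 comparisons and higher in 2. In the remaining 7 it was not called. Among late libraries, the 38 mCherry controls had 25 to 145 counts of Ir76a, above the 6 to 22 counts of the Pdp1, sens-2 and CG10209 RNAi libraries. Low levels were also seen outside these crosses, with 0.131 and 0 CPM in E5 RNAi libraries and 0.257 and 0.292 CPM (17 counts each) in the da-Gal4 control for E5 at 16 to 18 h, below all 38 mCherry controls.

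**Figure D4:**
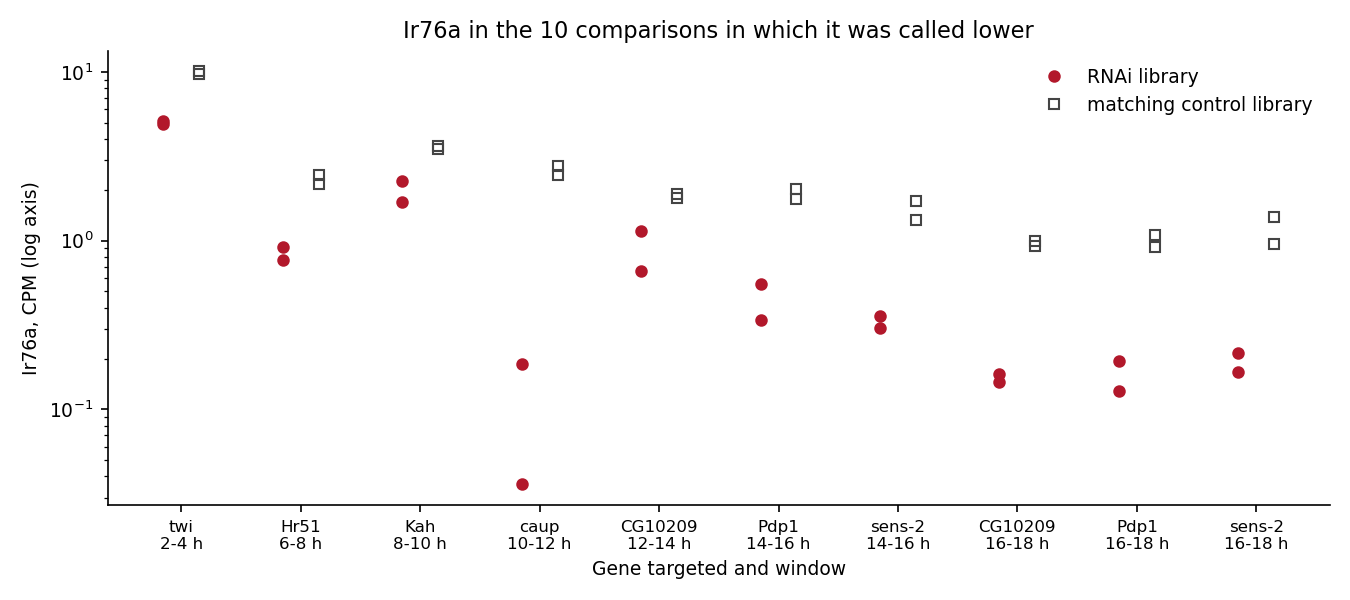
Level of Ir76a in CPM on a log axis in the 10 comparisons with a lower call, by targeted gene and window, with red points for RNAi libraries and open squares for matching control libraries. The red points lie below the squares throughout, as in all 63 lower calls of receptor genes. At 16 to 18 h they have 0.128 to 0.216 CPM, against 0.915 to 1.37 CPM, in the Pdp1, sens-2 and CG10209 comparisons.

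The receptor genes called beside Ir76a differed between these crosses. Pdp1 RNAi gave 2 lower and 1 higher of 30 tested at 14 to 16 h (background 11.7%) and 3 lower of 32 at 16 to 18 h (background 8.22%). At 14 to 16 h Ir60b had 2 counts over both RNAi libraries, against 32 counts over controls, a 15.5-fold lower ratio (95% exact interval 3.96 to 134), and Ir40a had 25 and 12 counts in RNAi libraries, against 0 and 2 counts in controls. Among the late calls, Or59a, a larval odorant receptor gene, was lower (-2.64 ± 0.88), and Or49a, another larval gene, had 3 counts over both RNAi libraries, against 22 over the controls (8.26-fold lower, 95% exact interval 2.48 to 43.1).

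CG10209 RNAi gave 4 lower and 4 higher of 36 tested at 12 to 14 h (background 15.4%), and 2 lower and 6 higher of 29 at 16 to 18 h (background 24.5%). At 12 to 14 h Or56a, Ir93a (-0.75 ± 0.30) and Ir62a (-0.75 ± 0.24) were lower, and Or43b (0.80 ± 0.29), Gr64a (2.20 ± 0.58), Gr47a (12.1-fold, 95% exact interval 3.86 to 60.9) and Gr64f were higher. In the later window Or9a was lower (-2.41 ± 0.60), and Ir87a (1.24 ± 0.30), Gr98a (1.39 ± 0.43), Ir75a (1.48 ± 0.48), Ir75b (1.80 ± 0.67), Gr64a (3.14 ± 0.64) and Gr64f were higher. For Ir87a the effect at 16 to 18 h exceeded that at 12 to 14 h by 1.24 ± 0.21 on the log2 scale (edgeR adjusted p = 0.00772, background 11.1% of all genes with such a difference).

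Hr51 RNAi at 6 to 8 h gave 4 lower and 1 higher of 20 tested (background 25.2%). Or19b had 7.56 and 6.10 CPM in RNAi libraries, against 11.4 and 14.2 CPM in matching controls (-0.67 ± 0.16), and Ir93a (-1.59 ± 0.55) and Ir7g (-2.60 ± 0.71) were also lower, while Or43b was higher (0.72 ± 0.24). Kah RNAi at 8 to 10 h gave 3 lower and 1 higher of 18 (background 26.1%), namely Or56a, Or2a, a larval odorant receptor gene (-1.44 ± 0.46), and Ir76a lower and Or43b higher (0.79 ± 0.18).

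Or56a, the receptor of the odorant geosmin, was called lower in 7 comparisons, but low counts were not confined to those crosses. Over the windows from 6 to 14 h, 56 of 75 RNAi libraries had 0 or 1 count, while all 32 mCherry control libraries had at least 4 counts, with a median of 15.5 and a highest value of 43. The da-Gal4 control for E5 at 10 to 12 h had 0 and 1 count. The exceptions among the RNAi crosses included scrt, with 9 and 33 counts, bsh, with 17 and 10, and Sox14, with 15 and 19.

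The calls for Or56a were in RNAi against CG10209 at 12 to 14 h (0 counts in both libraries, against 10 and 18 in controls), CG34376 at 10 to 12 h (0, against 8 and 31), ERR at 10 to 12 h (0, against 21 and 20), HLH54F at 8 to 10 h (2 and 0, against 23 and 23), Kah at 8 to 10 h (4 and 0, against 23 and 23), Sox15 at 10 to 12 h (1 and 0, against 20 and 39) and caup at 10 to 12 h (0, against 19 and 21). HLH54F and Kah RNAi were compared with the same control libraries, so their calls were not independent. The floors gave at least 5.41-fold lower in CG10209, 7.11-fold in CG34376 and 6.68-fold in ERR RNAi. It was the only receptor gene called in CG34376, ERR and HLH54F RNAi, of 15, 19 and 30 tested (background 0.595%, 2.3% and 1.04%). Low counts were thus seen in most RNAi libraries of these windows and in a control without the mCherry hairpin.

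**Figure D5:**
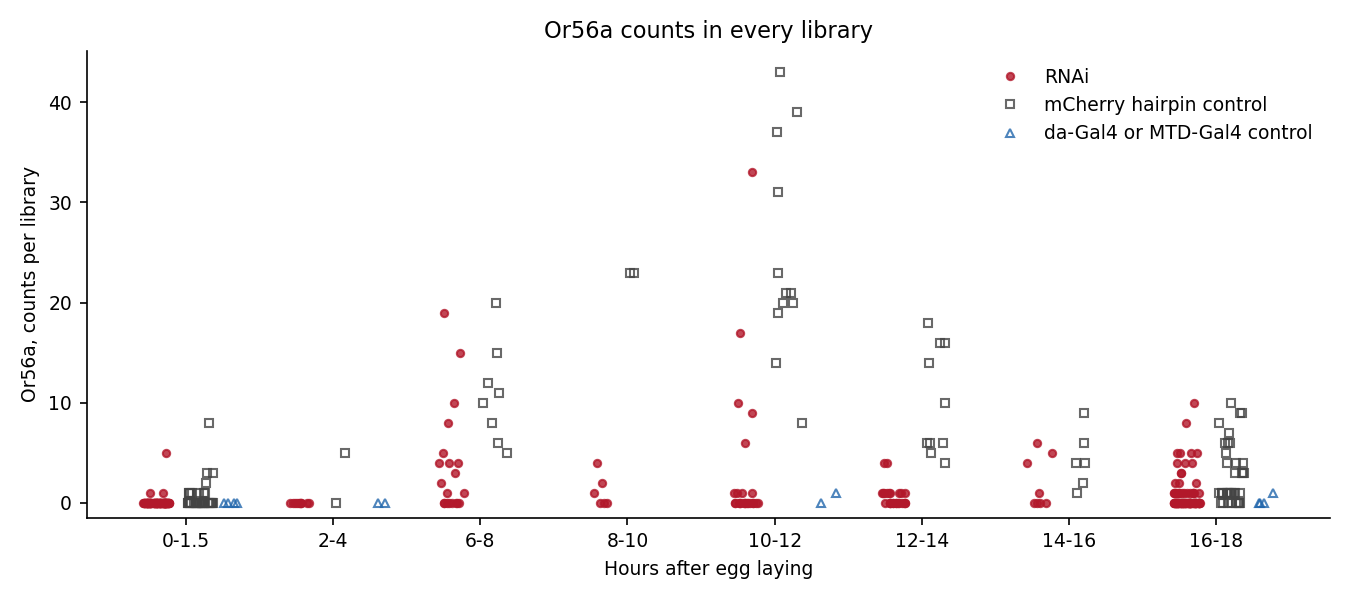
Counts of Or56a in every library against collection window in hours, with red points for RNAi libraries, open squares for mCherry controls and blue triangles for the da-Gal4 and MTD-Gal4 controls. From 6 to 14 h the mCherry libraries have 4 to 43 counts, while most RNAi libraries and the da-Gal4 control lie at 0 or 1.

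Gr64f and Gr64a are neighbours in the sugar receptor cluster on 3L. From 6 to 14 h 47 of 75 RNAi libraries had no count of Gr64f and 8 had at least 10, while the 32 mCherry control libraries had at most 4. The gene had 29 and 60 counts in ss RNAi embryos at 12 to 14 h and 130 and 90 counts in repo RNAi embryos at 14 to 16 h. It was called higher in RNAi against CG10209 in both windows, Camta at 12 to 14 h, Sox15 at 10 to 12 h and repo at 14 to 16 h. The late CG10209 RNAi libraries had 0.237 and 0.439 CPM, below the 0.555 and 0.562 CPM of the MTD-Gal4 control at 16 to 18 h. At 12 to 14 h CG10209 and Camta RNAi shared their control libraries. The matching controls had 0 counts except 1 count in a repo control. Gr64f was thus at least 6.33-fold and 4.93-fold higher in CG10209, 5.72-fold in Camta and 9.42-fold in Sox15 RNAi. In repo RNAi the ratio was 91.6 (95% exact interval 16.3 to 3636). The Camta comparison has 1 RNAi library, and its call was lost in DESeq2 (adjusted p = 0.963), in the joint edgeR fit (0.507) and with library totals (0.270). The joint fit also lost the Sox15 call (edgeR adjusted p = 0.211).

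Gr64a was called higher in RNAi against CG10209 in both windows, CG33557 at 6 to 8 h, Sox15 at 10 to 12 h (3.0 ± 0.89) and kay at 10 to 12 h, where it had 16 and 20 counts in RNAi libraries, against 1 and 1 count in controls. Over all libraries from 6 to 14 h Gr64a had a median of 1 and up to 114 counts in RNAi libraries, against a median of 1.5 and up to 25 counts in mCherry controls. It was the only receptor gene called in kay RNAi at 10 to 12 h, of 27 tested (background 1.65%), as Gr64f was in Camta RNAi, of 51 tested (background 1.76%, with 1 RNAi library). CG11593, whose exon overlaps Gr64f on the other strand, had log2 fold changes from -0.05 to 0.19 in these 5 comparisons.

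Or43b had the most calls of all, 10 higher and 2 lower. In Bdp1 RNAi at 16 to 18 h, a subunit of the RNA polymerase III initiation factor, it had 4.07 and 3.38 CPM, against 1.78 and 1.58 CPM in matching controls (1.38 ± 0.21, edgeR adjusted p = 0.00082). In CG32006 RNAi at 12 to 14 h it had 4.49 and 5.09 CPM, against 2.89 and 2.95 CPM in matching controls (0.87 ± 0.16, edgeR adjusted p = 0.00329). It was also higher in RNAi against CG10209, CG33557, Hr51, Kah, caup, kay and scro, as given with those crosses. With library totals the Or43b calls were lost in CG33557 RNAi (0.39, edgeR adjusted p = 0.276) and Hr51 RNAi (0.50, edgeR adjusted p = 0.121), and the log2 fold change was 0.52 in Kah, 0.68 in scro and 1.26 in late caup RNAi. Exons of Or43b overlap Cul1 on the other strand, and Cul1 was called the same way in 9 of the 12 comparisons. The part of Cul1 in the Or43b result was not tested.

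Bdp1 RNAi at 16 to 18 h gave 3 lower and 1 higher of 37 receptor genes (background 23.7%), the lower ones being Or67c (-2.30 ± 0.78), Gr98a (-1.43 ± 0.52) and Ir87a (-0.74 ± 0.29). CG32006 RNAi gave 2 lower and 1 higher of 30 (background 20.4%). Gr43a, a fructose receptor gene, had 0.0891 and 0.0925 CPM in CG32006 RNAi libraries, against 0.582 and 0.576 CPM in matching controls (-2.48 ± 0.55), and Ir85a was lower too (-3.33 ± 0.92). All control libraries of the window ran from 0.0633 to 0.582 CPM for Gr43a, with a median of 0.273 CPM. In 79 comparisons Gr43a averaged at least 10 counts. Both RNAi libraries were below both controls in 36.7% of them and above in 11.4%, beside 23.6% and 21.6% over all genes. Ir85a had 0 and 8 counts in the RNAi libraries, against 50 and 31 in these controls, while the 10 mCherry libraries of the window had a median of 6.5 counts and ran from 1 to 50. The overlapping gene of Gr43a on the other strand, Dhx15, was called the opposite way.

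Gr68a fell in late embryos of 2 crosses. In kay RNAi, the fly Fos gene, at 16 to 18 h it had 0.0406 and 0.0728 CPM, against 0.987 and 0.519 CPM in matching controls (-3.53 ± 0.59, edgeR adjusted p = 0.0488). In Sox15 RNAi at 16 to 18 h it had 0.148 and 0.146 CPM, against 0.516 and 0.923 CPM in matching controls (-2.20 ± 0.53, edgeR adjusted p = 0.019). The groups did not overlap in either cross, as in all 63 lower calls of receptor genes. In kay RNAi Or19b (0.54 ± 0.15) and Or43b (0.82 ± 0.21) were higher, which made 1 lower and 2 higher of 35 (background 18.9%), while kay itself was not lower, with 88.4 and 101 CPM in RNAi embryos, against 110 and 94.3 CPM in matching controls.

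In Sox15 RNAi Gr68a was the only call of 34 at 16 to 18 h (background 7.38%). At 10 to 12 h there were 2 lower and 3 higher of 31 (background 11.3%). Or69a had no count in Sox15 RNAi libraries, against 12 and 23 counts in controls, at least 4.95-fold lower. At 10 to 12 h Or69a had 0 or 1 count in 10 of all 24 RNAi libraries, against 1 of 12 mCherry controls, and both da-Gal4 control libraries had 0. Or67d, a pheromone receptor gene, had 13 and 22 counts in RNAi libraries, against 1 and 6 counts in controls (2.75 ± 0.77).

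The last calls were single genes. In fd59A RNAi at 16 to 18 h Gr33a had 0.585 and 1.02 CPM, against 0.287 and 0.179 CPM in matching controls (1.92 ± 0.48, edgeR adjusted p = 0.0995), the only call of 41 (background 7.73%). In repo RNAi at 14 to 16 h, which targets the glial regulator, Ir85a had 87 and 85 counts, against 3 and 4 counts in controls (3.25 ± 0.63), and with Gr64f made 2 higher of 66 (background 3.14%).

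The twi crosses, in which the mesoderm regulator was targeted, gave calls in all 3 windows. At 2 to 4 h twi had 74.4 and 90.3 CPM in RNAi embryos, against 177 and 173 CPM in MTD-Gal4 controls (-1.19 ± 0.17). There 6 of 30 tested receptor genes were lower and 3 higher (background 33.2%).

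Ir64a had 1.90 and 1.17 CPM in twi RNAi libraries at 2 to 4 h, against 10.7 and 12.5 CPM in MTD-Gal4 controls (-3.04 ± 0.29, edgeR adjusted p = 0.0149). Or71a, a palp odorant receptor gene, had 0.823 and 0.653 CPM, against 3.48 and 3.58 CPM in matching controls (-2.37 ± 0.30, edgeR adjusted p = 0.0163). Or71a lies inside Plp on the same strand. Ir7f (-2.69 ± 0.47), Or43b (-0.91 ± 0.19), Gr59f (-0.89 ± 0.32) and Ir76a were the other lower genes. For Ir64a the RNAi libraries lay between the MTD-Gal4 control and the mCherry crosses, which had at most 1 count.

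Ir68a was higher, with 37.4 and 38.9 CPM in twi RNAi libraries, against 21.4 and 24.0 CPM in matching controls (0.65 ± 0.13, edgeR adjusted p = 0.0283). Ir25a had 26 and 44 counts in RNAi libraries, against 12 and 14 counts in controls (1.40 ± 0.49), and Gr2a was higher as well (2.44 ± 0.72). At 0 to 1.5 h Or43b was the only call of 9 tested (background 10.9%), with 17.9 and 18.1 CPM in twi RNAi libraries, against 31.5 and 29.1 CPM in matching controls (-0.78 ± 0.15, edgeR adjusted p = 0.0464). In late twi crosses Ir87a was the only call of 52 (background 1.98%), with 0.126 and 0.314 CPM in twi RNAi libraries, against 2.47 and 2.69 CPM in matching controls (-3.47 ± 0.82, edgeR adjusted p = 0.0888). The labels give MTD-Gal4 for the control only, so whether the driver differed between these groups cannot be told apart from the RNAi.

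Whether an RNAi effect differed between the middle window and 16 to 18 h was tested for 20 TFs. These were the TFs with a receptor gene called at either window, so the set was chosen on the same libraries. Of 934 tests of receptor genes, 12 differed at an edgeR adjusted p of at most 0.1. A share over all genes for the 20 TFs together was not computed. Of the 12, 9 were in caup RNAi (background 54.5%), 2 in CG10209 RNAi (background 11.1%) and 1, Ir62a, in scro RNAi (background 10.1%). In caup RNAi the log2 effect on all 9, Orco and Ir76b among them, was more positive at 16 to 18 h than at 10 to 12 h, by 2.63 to 6.28. With RLE size factors 2 such differences were called in place of 12.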

How the data were processed

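The values were whole counts of reads per gene, deposited for each library. Per the labels and the study's methods, the authors aligned reads of stranded mRNA libraries to the dm6 genome with STAR 2.7.3a and counted them with HTSeq 0.12.4, leaving out reads over more than 1 gene; the strand option is not given in the sources used here. The summary lines of each count file, 3.52% to 20.7% of reads, were left out. Groups came from the sample labels. RNAi was compared with its control by edgeR 4.0.16 quasi-likelihood tests in R 4.3.3, with TMM factors, a filter on low counts (minimum 10) and Benjamini-Hochberg adjustment over all genes tested, and windows were compared in control libraries with control set as a covariate. Replicates are biological according to the study, and p-values measure the spread between them. Levels are counts over library totals. Intervals and floors of 3 counts per library cover counting error only. DESeq2 1.42.0 (the submitters' processing notes name DESeq2 1.24.0, and the study's methods another version), other normalization, filters, a joint fit, mCherry sets alone, a replicate block and leaving out replicates were alternatives. Scripts were tested on simulated data. Named genes are the co-receptors, the members highest in control embryos at 16 to 18 h and at 0 to 1.5 h, those called in the most comparisons, and, in each RNAi comparison, every called member where 10 or fewer were called and otherwise the largest changes in each direction without overlap, with the targeted gene; other names were chosen after their values were seen. The members and lists were chosen with earlier results of these data known. The contrasts with 2 to 4 h, the scaling by library totals and the comparison with all controls of a window were added after seeing the data. Replicate numbers did not pair the libraries. Promoter and protein sequences were not used here.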

Additional observations from a re-analysis of the deposited data

Results flagged for a closer look

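In control groups of 4 to 10 libraries, 7 of 61 gene and window groups held a library far from the others, and chance gives about 1 in 20. Most were in 1 library, replicate 2 of the mCherry control for CG15696, su(Hw), gfzf and cad at 2 to 4 h. Orco was at 0.176 CPM there and at most 0.0284 CPM in the other 3 libraries of the window, Ir25a was at 1.14 against 0.196 to 0.276 CPM, Ir62a at 2.08 against 0.365 to 0.553 CPM, and Ir87a at 0.704 against at most 0.0994 CPM. In replicate 1 of the same set Ir40a was at 0.71 CPM, against 2 to 2.13 CPM. Ir68a was high in replicate 1 of the control for Fer1, Camta and CG10209 at 12 to 14 h (1.27 CPM, against 0.354 to 0.765 CPM) and in replicate 2 of the control for repo and esn at 14 to 16 h (1.21 CPM, against 0.363 to 0.616 CPM).

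Effects of RNAi that differed between windows in the edgeR interaction test are given as the log2 effect at 16 to 18 h minus that in the middle window. In CG10209 RNAi the difference was 1.24 for Ir87a and 8.74 for Or56a, a gene with 0 counts in the RNAi libraries at 12 to 14 h, so that its size depends on the prior count. In caup RNAi it was 4.24 for Gr28b, 5.48 for Gr32a, 6.28 for Gr33a, 3.45 for Gr59f, 2.63 for Ir76a, 3.19 for Ir76b, 3.18 for Ir87a, 2.7 for Or19b and 3.06 for Orco. In scro RNAi it was 2.59 for Ir62a.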

How the results depend on the processing

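The 98 calls of receptor genes in RNAi comparisons became 197 in the joint fit of each window, which made 60 of the 98, and 51 at an adjusted p of at most 0.05, and ran from 85 to 134 when a replicate was left out. Other settings gave 90 to 138. Detection of 97 genes became 177 with 1 count in 10 libraries, and 69 to 73 with a replicate left out. Among window contrasts, the 82 calls at 16 to 18 h against 0 to 1.5 h became 152 without the filter and 125 in DESeq2, and the 41 at 6 to 8 h against 2 to 4 h became 20 with mCherry sets alone. The 12 differences between windows became 2 with RLE size factors. Leaving out a replicate gave 22 to 30 calls at 10 to 12 h against 6 to 8 h (40 with all), 17 to 25 at 12 to 14 h against 10 to 12 h (43), 8 to 24 at 16 to 18 h against 12 to 14 h (33), 13 to 25 at 6 to 8 h against 2 to 4 h, 32 to 49 at 2 to 4 h against 0 to 1.5 h (48), 61 to 63 at 6 to 8 h against 0 to 1.5 h (70) and 89 to 94 at 16 to 18 h against 0 to 1.5 h. The cause of these shifts was not tested. Gr5a in caup RNAi reversed to -0.47 with library totals. Gr68a, with at most 5 counts in any control library up to 6 to 8 h, ran from -0.26 to 3.27 at 6 to 8 h against 2 to 4 h and from -0.44 to 1.96 against 0 to 1.5 h when replicate 1 or 2 was left out. Of 83 called window values of named genes, 29 lost the call under some alternative and 2 reversed.

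The replicate number does not pair the libraries. The correlation of deviations over 134 comparisons ran from -0.691 to 0.789 with a median of 0.008, over 0.1 in 50 and under -0.1 in 41. With the replicate block 127 receptor gene calls were made, among them 73 of the 98.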
